A study of Mus musculus with 50 samples.

Results

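Genes whose difference between gut-draining and skin-draining lymph nodes changed with dietary vitamin A were sought in whole lymph nodes of C57BL/6J mice, sampled at 8 weeks of age (postnatal day 56). All 50 libraries of the series took part, in 10 groups of 5, and each library came from a duodenal, jejunal, ileal, colonic or inguinal node. Dams received a vitamin A deficient diet, or a diet of matched ingredients to which 20 IU/g of vitamin A had been restored, from 3 weeks before breeding, and the nodes are those of their offspring from later litters. All 25 deficient libraries came from females, whereas in each node the sufficient libraries numbered 1 and 2 came from females and those numbered 3, 4 and 5 from males, so sex was a term of the model. Whether nodes shared a mouse or litter is not given in the labels. The p-values therefore measure the spread between these libraries, and the diet cannot be told apart from dam and litter.

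The quantity tested was an interaction: the mean of the duodenal, jejunal, ileal and colonic nodes minus the inguinal nodes on the deficient diet, minus the same difference on the sufficient diet. It is given below as a log2 fold change with its standard error (SE). A negative interaction means that deficiency lowered a gene in gut-draining nodes relative to inguinal nodes, and a positive one that it raised it. Of 18387 genes tested, 169 passed at a Benjamini-Hochberg adjusted p under 0.05 in edgeR's quasi-likelihood test, which is 0.919% of the genes tested, and these 169 genes are described here. Expression levels are in CPM, counts relative to the scaled library total, with n = 5 libraries in each group.

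Vitamin A enters the body through the intestine and is carried as retinol or stored as retinyl esters. Cells oxidise retinol to retinaldehyde and then to retinoic acid, a ligand of nuclear receptors that switch target genes on, and enzymes of the Cyp26 family remove it. In nodes that drain the intestine, dendritic and stromal cells make retinoic acid, which gives lymphocytes the homing receptors of the gut. Inguinal nodes drain skin and fat.

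Library totals ran from 5335369 to 8904722 estimated counts, with a median of 7640371. The B cell gene Ms4a1, the T cell gene Cd3e, the T zone chemokine gene Ccl21a and the lymphatic gene Lyve1 were above 0 in all 50 libraries. In 10 deficient libraries the predicted gene Gm19220 took 1.03 to 1.70% of the counts, against 5.37 to 9.83% in the other 40. These 10 were 3 inguinal, 3 colonic, 2 ileal, 1 duodenal and 1 jejunal library. Pancreatic genes took more than 1% of the counts in 6 libraries, 5 duodenal and 1 jejunal, and up to 24.3% in one of them.

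Of the 169 genes, 73 had a higher interaction (0.397% of genes tested) and 96 a lower one (0.522%). At an unadjusted p under 0.05 there were 2087 genes, and the median interaction over all genes tested was -0.00188. The diet effect alone passed the test for 129 of the 169 genes in gut-draining nodes only, for 17 in inguinal nodes only, for 6 in both, always in the same direction, and for 17 in neither. Over all genes the diet effect passed for 3712 in gut-draining nodes (20.2%), estimated from 20 libraries per diet, and for 154 in inguinal nodes (0.838%), estimated from 5. In 124 of the 169 genes the fitted diet effects of the 2 regions had opposite signs. The regional difference itself passed for 122 of the 169 on the sufficient diet only, for 23 on the deficient diet only and for 23 on both, of which 5 had opposite directions. It was smaller in size on the deficient diet for 139 of the 169. Over all genes a regional difference passed for 3108 on the sufficient diet (16.9%) and for 1050 on the deficient diet (5.71%). The counts of 124 with opposite signs and of 139 were not made over all genes. The 169 were picked by the interaction itself, which favours opposite signs.

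The number of genes that passed depended on which libraries entered. Leaving out all 5 nodes of 1 library number gave 85, 78, 95 and 112 genes without sufficient numbers 1, 2, 4 and 5, and 87, 86 and 98 without deficient numbers 2, 3 and 4. Without the 10 libraries low in Gm19220 it was 19, of which 18 were among the 169. That setting left out 3 of the 5 deficient inguinal libraries. With all libraries kept and a term for low Gm19220, the count was 172, of which 152 were among the 169. In female mice only it was 29, of which 23 were among the 169. Of the genes named as passing in what follows, those that also passed without the libraries low in Gm19220 were Lrat, Aldh1a2, Cyp26b1, Gpr15lg, S100a4, H2-M2, Fam78a, Aqp9, Asprv1, Stra6l, Tmem273, Tpsab1, Tpsb2, Cma1, Mcpt4 and Mrgprb1, and all others lost their call there. In female mice only, the first 7 of these, Cd28, Prdm8, Csf1, Bmp2, Thy1 and Mmp9 passed, and all others named lost their call. None of the 169 genes changed sign in any of the 27 alternative analyses, and 7 passed in all of them, namely Lrat, Aldh1a2, Cyp26b1, Gpr15lg, S100a4, H2-M2 and Fam78a, the last 3 of which are named after their values were seen. For diet alone, the inguinal count was 53, 73, 82 and 95 without sufficient numbers 1 and 2 and deficient numbers 2 and 3, and the gut-draining count was 2002 without sufficient number 2.

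**Figure D1:**
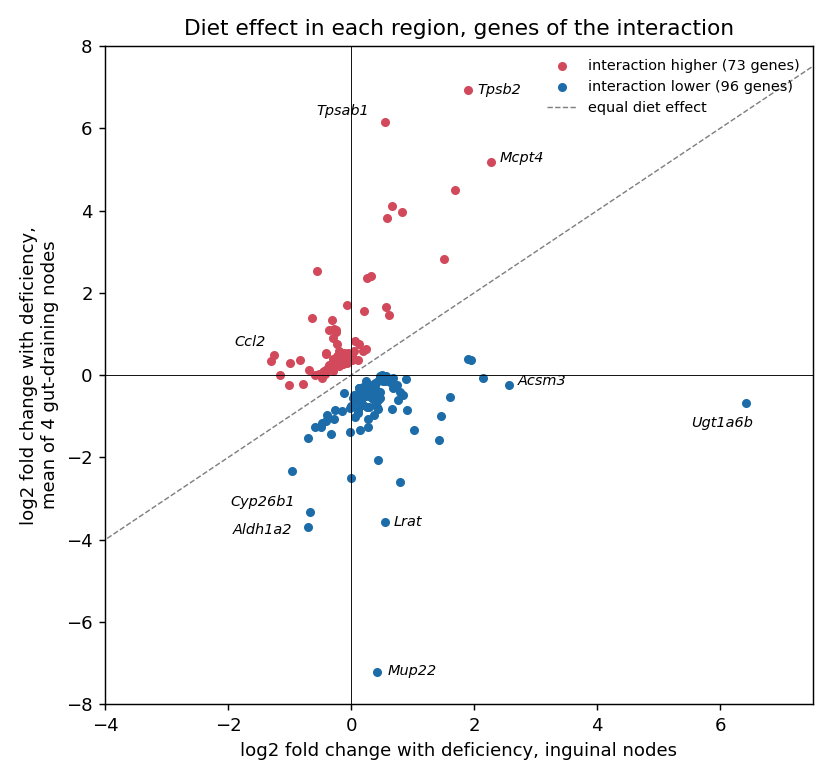
Log2 fold change with deficiency in the inguinal nodes (x axis) and over the 4 gut-draining nodes (y axis) for each of the 169 genes of the interaction. Each point is a gene, the dashed line marks an equal diet effect in both regions, and the 73 genes with a higher interaction lie above it and the 96 with a lower one below it.

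Retinoid genes were among the lower interactions with the smallest adjusted p-values. Of 18 genes of retinoid metabolism tested, 4 had a lower interaction, among them Lrat, Cyp26b1 and Aldh1a2, and 0 a higher one, with a median of -0.74 over the 18 against -0.00188 over all genes. The point estimate was negative for 17 of the 18. These genes encode the enzyme that esterifies retinol for storage (Lrat), an enzyme that makes retinoic acid (Aldh1a2) and an enzyme that degrades it (Cyp26b1). In these whole nodes, fewer cells of a type and less RNA per cell cannot be told apart. The count of 4 lay between 3 and 5 in all 27 alternatives.

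Lrat (lecithin retinol acyltransferase, chr3:82892579-82903973) was the gene with the lowest adjusted p. On the sufficient diet its level in the 20 gut-draining libraries ran from 5.89 to 30.7 CPM with a median of 14.3 CPM, and in the 5 inguinal libraries it was 1.69, 1.25, 2.57, 1.37 and 1.09 CPM. On the deficient diet the gut-draining libraries ran from 0.65 to 3.17 CPM with a median of 1.09 CPM, and the inguinal libraries were at 1.89, 2.28, 2.90, 1.34 and 3.49 CPM. Every sufficient gut-draining library was above every inguinal library and above every deficient gut-draining one, while on the deficient diet the regions overlapped. Deficiency lowered Lrat 11.9-fold in gut-draining nodes (-3.58 ± 0.17 on the log2 scale, adjusted p 6.19e-21), and the inguinal value was 0.55 ± 0.32 (adjusted p 0.532). The interaction was -4.12 ± 0.34 (SE, adjusted p 4.53e-11). The regional difference passed on both diets and was reversed, from 3.23 on the sufficient to -0.90 on the deficient diet (adjusted p 0.0114).

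Within the gut-draining nodes on the sufficient diet, Lrat was highest in duodenal nodes, at 24.3 ± 4.00 CPM (SD), followed by jejunal at 18.5 ± 3.13 CPM, ileal at 12.4 ± 1.91 CPM and colonic nodes at 8.66 ± 2.22 CPM. On the deficient diet the 4 means lay between 0.866 ± 0.254 CPM in colonic and 1.69 ± 0.777 CPM in jejunal nodes. There the duodenal, ileal and jejunal means lay within 1 SD of each other, and the diet effect did not pass the test of a difference among the 4 nodes (adjusted p 0.636).

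Aldh1a2 (retinaldehyde dehydrogenase 2, chr9:71215789-71296243) showed the same loss of a regional difference. Its level in the sufficient gut-draining libraries ran from 13.3 to 75.4 CPM with a median of 39.0 CPM, against 2.40, 1.94, 2.87, 3.00 and 2.62 CPM in the inguinal libraries. The deficient gut-draining libraries ran from 0.865 to 5.51 CPM with a median of 2.21 CPM and the inguinal ones were at 1.01, 2.53, 1.51, 1.34 and 0.764 CPM. The sufficient gut-draining libraries all lay above all other libraries, and the deficient gut-draining libraries overlapped the inguinal ones. Deficiency lowered Aldh1a2 12.9-fold in gut-draining nodes (-3.69 ± 0.18, adjusted p 2.9e-20), and the inguinal value was -0.70 ± 0.41 (adjusted p 0.529). The interaction was -2.99 ± 0.45 (adjusted p 8.51e-05), and by node against inguinal it was -3.96, -3.19, -2.80 and -2.02 in duodenal, jejunal, ileal and colonic nodes.

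Cyp26b1 (retinoic acid hydroxylase, chr6:84571414-84593908) differed from both in that its level was highest in inguinal nodes. On the sufficient diet it ran from 3.29 to 24.2 CPM with a median of 5.88 CPM in gut-draining libraries and was 20.6, 16.1, 16.9, 24.7 and 22.2 CPM in inguinal ones. On the deficient diet it ran from 0 to 2.60 CPM with a median of 0.579 CPM in gut-draining libraries and was 13.1, 13.1, 13.7, 9.18 and 10.9 CPM in inguinal ones. The regions overlapped on the sufficient diet through 1 jejunal library at 24.2 CPM, and on the deficient diet every gut-draining library was below every inguinal one. Deficiency lowered Cyp26b1 9.99-fold in gut-draining nodes (-3.32 ± 0.24, adjusted p 1.38e-14). The inguinal value was -0.67 ± 0.33 (adjusted p 0.427) and the interaction -2.65 ± 0.38 (adjusted p 3.11e-05). The regional difference thus grew, from 2.91-fold lower in gut-draining nodes on the sufficient diet to 18.3-fold lower on the deficient diet.

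**Figure D2:**
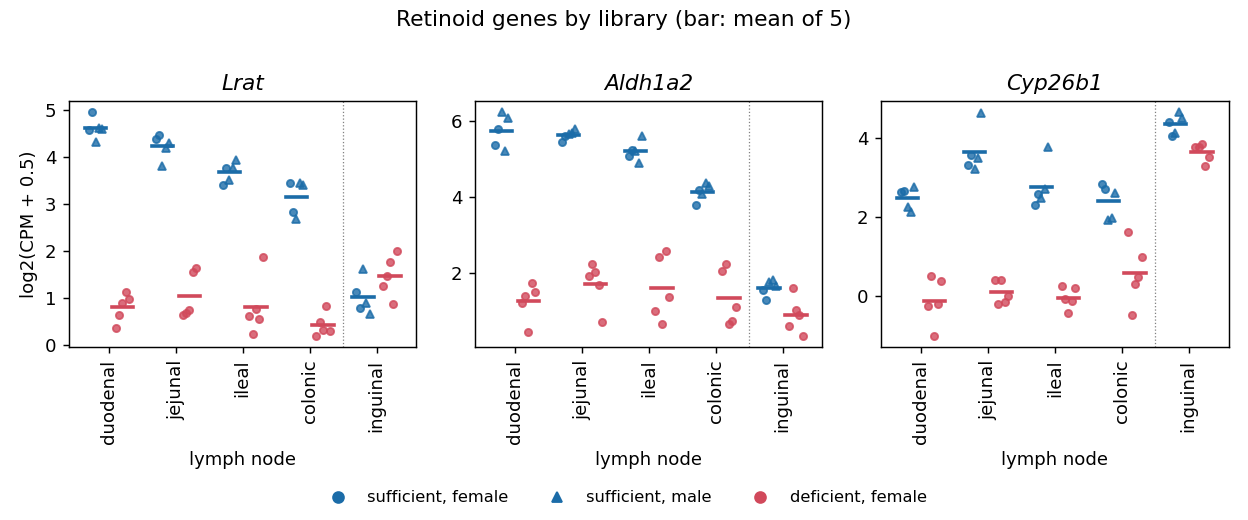
Level of Lrat, Aldh1a2 and Cyp26b1 in every library, as log2(CPM + 0.5), by node and diet; circles are females, triangles males, and bars the mean of 5 libraries on the log scale. On the sufficient diet Lrat and Aldh1a2 lie above the inguinal libraries in all 20 gut-draining libraries, and Cyp26b1 falls to at most 2.60 CPM in the deficient gut-draining libraries.

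The 250 bases before the RefSeq start of these 3 genes and of Rarb are shown because the genes are part of 1 pathway and Lrat, Aldh1a2 and Cyp26b1 moved together in gut-draining nodes. Rarb encodes a retinoic acid receptor that is a textbook target of retinoic acid. The windows are from RefSeq (GRCm38.p6), read 5′ to 3′ on the gene's strand, at chr3:82903975-82904224 (minus strand) for Lrat, chr9:71215539-71215788 (plus) for Aldh1a2, chr6:84593811-84594060 (minus) for Cyp26b1 and chr14:16575477-16575726 (minus) for Rarb. The Cyp26b1 window lies partly inside the gene as GENCODE places it. Capitals mark the half-site AGGTCA of retinoid receptors on either strand, where the first base could be A or G and the third G or T.
Lrat: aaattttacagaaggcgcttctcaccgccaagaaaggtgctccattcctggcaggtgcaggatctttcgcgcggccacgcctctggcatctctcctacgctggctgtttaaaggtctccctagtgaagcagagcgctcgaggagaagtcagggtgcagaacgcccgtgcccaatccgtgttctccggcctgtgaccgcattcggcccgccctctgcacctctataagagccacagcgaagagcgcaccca
Aldh1a2: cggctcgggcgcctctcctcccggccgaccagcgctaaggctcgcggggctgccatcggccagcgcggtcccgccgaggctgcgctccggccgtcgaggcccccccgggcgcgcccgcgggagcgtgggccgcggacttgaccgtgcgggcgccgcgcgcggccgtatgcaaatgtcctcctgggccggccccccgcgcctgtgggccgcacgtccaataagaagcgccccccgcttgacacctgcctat
Cyp26b1: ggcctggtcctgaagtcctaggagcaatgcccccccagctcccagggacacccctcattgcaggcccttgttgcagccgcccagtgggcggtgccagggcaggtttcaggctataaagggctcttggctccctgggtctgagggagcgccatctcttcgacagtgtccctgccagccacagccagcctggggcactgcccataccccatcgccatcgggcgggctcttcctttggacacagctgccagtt
Rarb: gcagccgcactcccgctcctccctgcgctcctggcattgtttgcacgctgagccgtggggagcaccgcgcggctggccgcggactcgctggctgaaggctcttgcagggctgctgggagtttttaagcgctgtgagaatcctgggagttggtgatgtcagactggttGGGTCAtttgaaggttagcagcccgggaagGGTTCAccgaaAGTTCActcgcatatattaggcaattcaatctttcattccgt

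Direct repeats of these half-sites with a spacer of 1, 2 or 5 bases were counted on both strands, where a half-site may belong to more than 1 repeat. The Rarb window held 1 repeat with a spacer of 5, whose first base lies at -53 from the start, and 3 half-sites in all. The windows of Lrat, Aldh1a2 and Cyp26b1 held no half-site. Of 171 windows of the 119 interaction genes that were matched by symbol, 0 held such a repeat, against 0.426% of all 32851 windows, and 38.6% of all windows held a half-site. A match is only a description of these letters in this window. Rarb itself had an interaction of -0.96 ± 0.74 (adjusted p 0.694), at levels up to 2.38 CPM.

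Among 18 retinoic acid receptors and response genes tested, 4 had a lower interaction (Cyp26b1, Plaat3, Rarres2 and Hic1) and 0 a higher one, with a median of -0.21. The list was mixed in sign, with 7 positive point estimates. At an unadjusted p under 0.05, 7 were lower and 1 was higher. Plaat3, an acyltransferase and phospholipase, had -0.76 ± 0.16 (adjusted p 0.00661), and Rarres2, which encodes chemerin, -0.79 ± 0.17 (adjusted p 0.0138). Both fell in gut-draining nodes, by 0.36 and 0.42 on the log2 scale, and had inguinal values of 0.39 and 0.37 that did not pass. Hic1, a transcriptional repressor, had -0.68 ± 0.18 (adjusted p 0.0492), and passed in 6 of the 27 alternatives. The list's 4 were 1 without the libraries low in Gm19220, 1 in female mice only, 1 with a sex term in each region, 2 without a sex term and 2 without sufficient number 4 or deficient number 3.

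Other retinoid genes moved with diet in gut-draining nodes while their interaction did not pass. Stra6, the retinol uptake receptor, fell there by 1.45 (adjusted p 4.19e-08), with an inguinal value of -0.92 ± 0.36 and an interaction of -0.53 ± 0.38 (adjusted p 0.663), which was 0.19 without the libraries low in Gm19220. Dhrs3, which reduces retinaldehyde, fell by 0.63 there and had an interaction of -0.66 ± 0.19 (adjusted p 0.0718). Aldh1a1, another retinaldehyde dehydrogenase, rose in both regions, by 0.75 and 1.69, with an interaction of -0.94 ± 0.40 (adjusted p 0.347). The interactions of Aldh1a3, Rdh10 and Rbp4 were -0.25 ± 0.27, -0.15 ± 0.13 and -1.93 ± 0.71, and none of them passed. Cyp26a1 was too low to be tested.

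Aqp9, a channel for water and glycerol (chr9:71110659-71168682), lies 47106 bases from Aldh1a2 with 0 protein-coding genes between them in GENCODE M21, and it fell in the same nodes. It ran from 1.46 to 12.8 CPM with a median of 6.63 CPM in sufficient and from 0.124 to 2.75 CPM with a median of 1.01 CPM in deficient gut-draining libraries. The inguinal libraries were at 1.69, 1.52, 2.42, 1.62 and 1.31 CPM on the sufficient diet and 1.64, 1.14, 1.26, 3.02 and 2.40 CPM on the deficient diet. Its level was high in the sufficient duodenal, jejunal and ileal libraries, all of which exceeded all deficient gut-draining libraries, and the colonic libraries overlapped. The interaction was -2.50 ± 0.41 (adjusted p 0.000374), made up of -2.51 ± 0.21 in gut-draining and -0.01 ± 0.44 in inguinal nodes.

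The other genes with the largest lower interactions were expressed at lower levels. Tmem273, which encodes a membrane protein, had -3.38 ± 0.69 (adjusted p 0.00643) and Atp6v0d2, a subunit of the vacuolar proton pump, passed with an adjusted p of 0.00105. Both were above every inguinal library in every sufficient gut-draining library, at medians of 3.34 and 5.28 CPM, and overlapped on the deficient diet at 0.507 and 1.49 CPM. Alox15, a lipoxygenase, had -2.49 ± 0.57 and fell in gut-draining nodes by 2.06 on the log2 scale (adjusted p 5.19e-07). Rbfox2, a splicing factor, had -2.44 ± 0.55, and Vwa3a -2.35 ± 0.55. Acsm3, an acyl-CoA synthetase, had -2.79 ± 0.73 (adjusted p 0.0467), with a gut-draining value near 0 (-0.23) and an inguinal value of 2.56 ± 0.72 that did not pass. Without the libraries low in Gm19220, 3 of the 5 deficient inguinal libraries were left out. The interaction there was -1.93 for Atp6v0d2 (adjusted p 0.774) and -2.46 for Alox15 (adjusted p 0.444). It was -2.50 for Rbfox2 (adjusted p 0.277) and -2.61 for Vwa3a (adjusted p 0.194). Acsm3 passed in 9 of the 27 alternatives.

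A pair of genes with the largest fitted values rest on libraries at 0. Ugt1a6b, a glucuronosyltransferase that shares exons with other genes of the Ugt1a locus, was listed at 0 in all 5 sufficient inguinal libraries and at 1.52 to 2.14 CPM in the 5 deficient ones. Mup22, a major urinary protein gene with near-identical copies, was at 0 in 4 of 20 sufficient and 16 of 20 deficient gut-draining libraries, and reached 62.5 CPM in 1 sufficient library. Reads of both can be split among related genes, their fitted interactions of -7.09 and -7.64 depend on how 0 is treated, and they are uncertain.

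Transcripts of mast cells, tissue cells that store proteases in granules, gave the largest higher interactions. Of 14 mast cell, basophil and eosinophil genes tested, 5 had a higher interaction (Tpsab1, Tpsb2, Mcpt4, Cma1 and Mrgprb1) and 0 a lower one, with a median of 1.88. The point estimate was positive for 10 of the 14. At an unadjusted p under 0.05, 9 were higher and 1 was lower. Tpsab1 and Tpsb2 encode tryptases, Mcpt4 and Cma1 chymases, and Mrgprb1 and Mrgprx2 receptors of the Mas-related family. The summed level of the list ran from 58.9 to 79.0 CPM in sufficient duodenal and 191 to 502 CPM in deficient duodenal libraries, and from 45.7 to 63.6 CPM in sufficient inguinal and 89.9 to 147 CPM in deficient inguinal libraries. In colonic libraries it ran from 41.7 to 66.7 CPM on the sufficient and 31.6 to 113 CPM on the deficient diet, so that the diets overlapped only there among the 4 gut-draining nodes.

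Tpsb2 (chr17:25366305-25369098) was nearly absent from gut-draining nodes on the sufficient diet. It was listed at 0 in 12 of 20 libraries and reached at most 4.39 CPM, while the sufficient inguinal libraries were at 2.54, 5.40, 4.23, 4.99 and 3.83 CPM. On the deficient diet it was 126, 133, 36.7, 94.1 and 52.8 CPM in duodenal, 126, 108, 78.1, 98.1 and 65.0 CPM in jejunal and 61.1, 39.5, 19.1, 33.7 and 38.6 CPM in ileal libraries. It was 2.60, 0, 0, 13.7 and 1.18 CPM in colonic and 8.68, 16.4, 13.6, 10.7 and 14.6 CPM in inguinal libraries. All deficient duodenal, jejunal and ileal libraries were above all inguinal libraries, whereas 4 of the 5 deficient colonic libraries were below all of those of the deficient inguinal group. The interaction was 5.02 ± 0.84 (adjusted p 0.00047).

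Mcpt4 (chr14:56059629-56062313) rose in both regions. It ran from 0.233 to 3.12 CPM with a median of 0.668 CPM in sufficient gut-draining libraries, and the sufficient inguinal libraries were at 2.82, 6.65, 7.85, 6.74 and 6.34 CPM. The deficient means were 92.5 ± 38.1 CPM (SD) in duodenal, 78.3 ± 18.0 CPM in jejunal, 41.2 ± 13.4 CPM in ileal, 5.19 ± 6.93 CPM in colonic and 31.2 ± 10.5 CPM in inguinal libraries. The order duodenal, jejunal, ileal and inguinal has neighbours within 1 SD of each other except between jejunal and ileal nodes, and the colonic mean was the lowest. The diet effect was 5.18 ± 0.38 in gut-draining nodes (adjusted p 3.17e-14) and 2.27 ± 0.53 in inguinal nodes (adjusted p 0.0226), and the interaction 2.91 ± 0.55 (adjusted p 0.0022).

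Cma1 (chr14:55941451-55944675) followed the same order. Its deficient means were 44.1 ± 18.8 CPM (SD) in duodenal, 42.9 ± 5.66 CPM in jejunal, 18.0 ± 7.05 CPM in ileal, 2.66 ± 3.60 CPM in colonic and 11.1 ± 3.64 CPM in inguinal libraries, and no sufficient library exceeded 4.85 CPM. Its interaction was 2.80 ± 0.56 (adjusted p 0.00554), and its diet effect differed among the 4 gut-draining nodes (adjusted p 0.00308, F test). Against the shared inguinal libraries the node values were 5.38, 4.28, 2.06 and -0.51 in duodenal, jejunal, ileal and colonic nodes. The same 4 values were 5.14, 4.12, 2.26 and 0.13 for Mcpt4 and 8.53, 7.01, 3.43 and 1.13 for Tpsb2, whose test among nodes did not pass (adjusted p 0.0687 and 0.19).

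Tpsab1, 20742 bases from Tpsb2, was at 0 in 17 of 20 sufficient gut-draining libraries and had an interaction of 5.60 ± 0.83 (adjusted p 8.51e-05). Its highest deficient means were 9.48 ± 3.95 CPM in duodenal and 8.81 ± 2.54 CPM in jejunal libraries. Mrgprb1 had 3.24 ± 0.70 (adjusted p 0.0103) and Mrgprx2, 22276 bases from it, 3.44 ± 0.76 (adjusted p 0.0132), with no deficient library above 10.6 and 3.79 CPM. The tryptases, and the chymases of the Mcpt and Cma1 cluster, are close relatives, and reads may be split among them.

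The 5 mast cell genes passed without the libraries low in Gm19220, where Tpsb2 had 5.86 (adjusted p 0.000323). In female mice only, 0 of them passed, with values of 5.89 (adjusted p 0.0717) for Tpsb2 and 2.33 (adjusted p 0.317) for Mcpt4. Without the jejunal libraries 2 passed and without the duodenal libraries 3, and 3 passed with a sex term in each region.

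**Figure D3:**
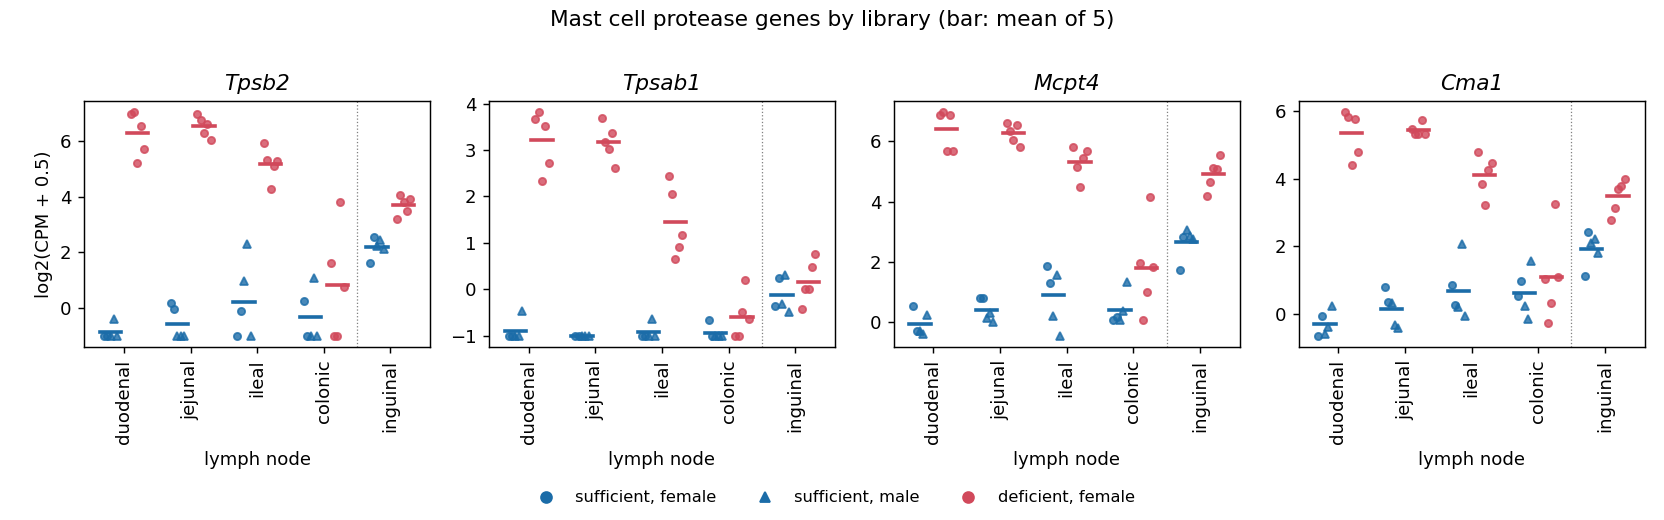
Level of 4 mast cell protease genes in every library, as log2(CPM + 0.5), by node and diet; circles are females, triangles males, and bars the mean of 5 libraries on the log scale. Deficient duodenal, jejunal and ileal libraries lie above the sufficient ones for all 4 genes, and deficient colonic libraries, at 0 to 13.7 CPM of Tpsb2, overlap them.

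A further group of genes rose in gut-draining nodes toward or past the inguinal level, and least in colonic nodes. H2-M2, a non-classical MHC class I gene, and S100a4, a calcium-binding protein of motile cells, were singled out after their values were seen because they passed in all 27 alternatives. H2-M2 ran from 7.62 to 32.1 CPM with a median of 16.8 CPM in sufficient gut-draining libraries, all below the inguinal ones at 62.2, 61.9, 43.9, 44.2 and 55.9 CPM. It ran from 27.8 to 99.5 CPM with a median of 41.9 CPM in deficient gut-draining libraries and overlapped the inguinal ones at 68.7, 55.0, 48.5, 58.7 and 60.0 CPM. Its interaction was 1.40 ± 0.15 (adjusted p 3.63e-08), with a rise of 1.12 ± 0.09 in gut-draining nodes and an inguinal value of -0.27 ± 0.14.

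S100a4 ran from 18.2 to 48.6 CPM with a median of 31.4 CPM in sufficient and from 51.8 to 174 CPM with a median of 67.2 CPM in deficient gut-draining libraries, with no overlap between the diets. The sufficient inguinal libraries were at 50.1, 50.4, 83.8, 81.1 and 90.2 CPM, lower in the females numbered 1 and 2 than in the males, and the deficient ones at 90.2, 83.1, 85.2, 87.8 and 74.5 CPM. S100a4 rose by 1.65 ± 0.09 in gut-draining and by 0.57 ± 0.14 in inguinal nodes (adjusted p 0.0322), and the interaction was 1.08 ± 0.15 (adjusted p 1.78e-05). For both genes the rise differed among the gut-draining nodes (adjusted p 0.000259 each). The node values were 1.71, 1.88, 1.44 and 0.55 for H2-M2 and 1.73, 1.20, 1.09 and 0.30 for S100a4 in duodenal, jejunal, ileal and colonic nodes.

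Gpr15lg, which encodes the ligand of the colon homing receptor Gpr15 (chr14:37102140-37114022), had an interaction of 2.11 ± 0.29 (adjusted p 2.54e-05). It ran from 0.45 to 5.62 CPM with a median of 2.27 CPM in sufficient and from 4.49 to 21.0 CPM with a median of 11.2 CPM in deficient gut-draining libraries. The inguinal libraries stayed between 5.12 and 8.61 CPM on the sufficient and between 6.11 and 8.30 CPM on the deficient diet. Deficient means fell from 16.1 ± 3.98 CPM (SD) in duodenal through 12.3 ± 3.78 CPM in jejunal and 9.59 ± 3.34 CPM in ileal to 7.67 ± 2.31 CPM in colonic nodes, each within 1 SD of its neighbour, and the diet effect differed among these nodes (adjusted p 0.00208). The receptor gene Gpr15 rose in both regions, by 1.39 and 1.19, and its interaction of 0.20 ± 0.20 did not pass (adjusted p 0.838).

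Asprv1, an aspartic protease known from skin, had 2.02 ± 0.28 (adjusted p 2.54e-05). In duodenal nodes it was 4.15, 4.20, 6.11, 7.52 and 4.28 CPM on the sufficient and 26.0, 18.7, 10.5, 22.6 and 15.5 CPM on the deficient diet. In inguinal nodes it was 3.38, 5.68, 8.30, 6.61 and 9.29 CPM on the sufficient and 3.90, 2.40, 3.40, 3.47 and 3.06 CPM on the deficient diet. The duodenal groups did not overlap and went up with deficiency, while the inguinal value of -0.64 ± 0.28 did not pass. Its diet effect differed among the gut-draining nodes (adjusted p 0.000259), with node values of 2.82, 2.91, 1.64 and 0.72.

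**Figure D4:**
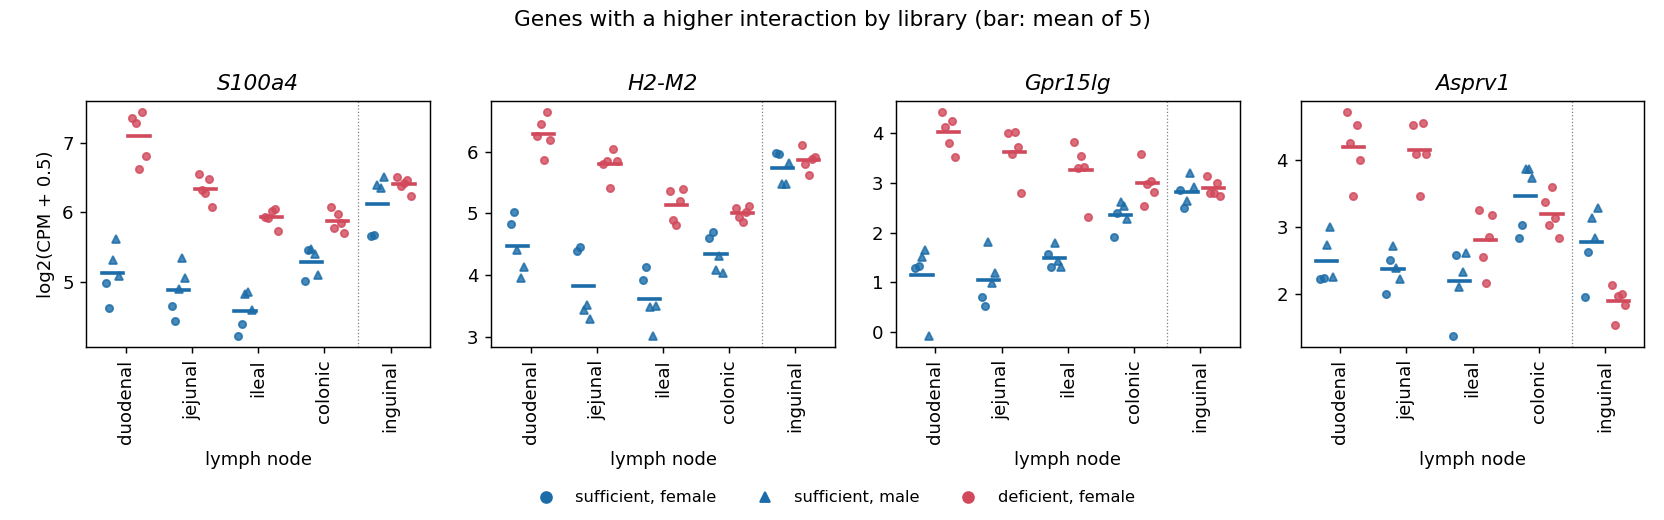
Level of S100a4, H2-M2, Gpr15lg and Asprv1 in every library, as log2(CPM + 0.5), by node and diet; circles are females, triangles males, and bars the mean of 5 libraries on the log scale. The gap between the diets is widest in duodenal and jejunal nodes and narrowest in colonic nodes, where the S100a4 libraries of the diets still do not overlap. For Asprv1 the deficient colonic mean lies below the sufficient one with overlapping libraries.

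Among the other genes with the largest higher interactions, Prdm8, a PR-domain transcription factor, had 3.10 ± 0.49 (adjusted p 0.00018) at levels up to 4.51 CPM. Wnt10a, a secreted signalling protein, had 1.79 ± 0.38 (adjusted p 0.00882), and was below every inguinal library in all sufficient gut-draining libraries. Inpp5j, an inositol phosphatase, had 2.10 ± 0.55 (adjusted p 0.0448) and lost its call when any deficient number was left out. Without the libraries low in Gm19220 the interaction was 2.82 for Prdm8 (adjusted p 0.12) and 1.99 for Wnt10a (adjusted p 0.216). In female mice only it was 2.83 (adjusted p 0.0374) and 1.24 (adjusted p 0.333).

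Ccl2, the monocyte chemoattractant, was the called member of 14 tested inflammatory chemokine genes. It ran from 2.48 to 11.9 CPM with a median of 4.81 CPM in sufficient and from 3.21 to 34.8 CPM with a median of 6.79 CPM in deficient gut-draining libraries. The inguinal libraries were at 4.65, 8.72, 7.55, 6.61 and 6.56 CPM on the sufficient and 3.90, 3.54, 1.64, 2.80 and 2.62 CPM on the deficient diet, without overlap. Ccl2 fell in inguinal nodes by 1.25 on the log2 scale (adjusted p 0.0428), had 0.48 ± 0.19 in gut-draining nodes (adjusted p 0.0587), and the interaction was 1.73 ± 0.33 (adjusted p 0.00313). The Ccl2 interaction did not pass without the libraries low in Gm19220 (1.66, adjusted p 0.212) or in female mice only (1.68, adjusted p 0.14). With a sex term in each region it did not pass either (1.67, adjusted p 0.0747). Ccl8, whose level in inguinal nodes was above that of all gut-draining libraries on both diets, had 1.26 ± 0.37 and did not pass (adjusted p 0.0854).

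T cell genes sat below the inguinal level in gut-draining nodes on the sufficient diet and near it on the deficient diet. Of 17 T cell genes tested, 9 had a higher interaction (Tcf7, Il7r, Cd27, Lef1, Cd28, Cd8b1, Cd8a, Cd3e and Satb1) and 0 a lower one, and all 17 point estimates were positive, with a median of 0.50. The median regional difference of the list was -0.42 on the sufficient and 0.06 on the deficient diet. Its summed level ran from 2129 to 2826 CPM in ileal and 3170 to 4037 CPM in inguinal libraries on the sufficient diet, and from 3152 to 4099 CPM and 2988 to 3791 CPM on the deficient diet. The 83 T cell receptor segments tested had a median of 0.54 with 0 genes called.

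The members did not all move in the same region. Il7r, the interleukin 7 receptor, rose in gut-draining nodes by 0.75 ± 0.09 (adjusted p 2.26e-08), and Tcf7, a transcription factor of naive T cells, by 0.55 ± 0.08 (adjusted p 4.13e-06), with inguinal values of 0.13 ± 0.14 and -0.11 ± 0.14 that did not pass. Cd28, the costimulatory receptor, fell in inguinal nodes by 0.52 (adjusted p 0.00261) and had 0.04 ± 0.06 in gut-draining nodes (adjusted p 0.728). Lef1, a transcription factor related to Tcf7, fell in both regions, by 0.22 in gut-draining and by 0.79 in inguinal nodes.

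For Tcf7 the gut-draining libraries ran from 181 to 358 CPM with a median of 276 CPM on the sufficient and from 318 to 549 CPM with a median of 435 CPM on the deficient diet. The inguinal libraries were at 445, 418, 294, 403 and 346 CPM and 414, 312, 313, 334 and 444 CPM. For Cd28 the inguinal libraries were at 69.5, 74.9, 49.2, 56.0 and 51.6 CPM and 50.8, 37.9, 45.0, 39.2 and 52.5 CPM. For Tcf7 and Cd28 the regions overlapped on both diets. For Il7r all sufficient gut-draining libraries, at up to 183 CPM, were below all inguinal ones, from 185 CPM upward, and the regions overlapped on the deficient diet. The interactions were 0.66 ± 0.15 (adjusted p 0.0138) for Tcf7, 0.56 ± 0.11 (adjusted p 0.0022) for Cd28, 0.56 ± 0.13 (adjusted p 0.0228) for Lef1, 0.61 ± 0.15 (adjusted p 0.0317) for Il7r and 0.52 ± 0.13 (adjusted p 0.0261) for Cd8a.

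The number of T cell genes that passed depended on the libraries that entered. It was 0 without the libraries low in Gm19220, 1 in female mice only and 5 with a sex term in each region. It was 3, 1 and 3 without sufficient numbers 1, 2 and 4, 3, 1 and 3 without deficient numbers 2, 3 and 4, and 3 and 2 without the jejunal and the ileal libraries. Cd28 passed in 26 of the 27 alternatives, Tcf7 in 21, Lef1 and Cd8a in 18 each and Il7r in 16. With all libraries kept and a term for low Gm19220 in the model, every T cell gene of the list called in the main fit stayed called. The part of Gm19220 in these results was not tested further.

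**Figure D5:**
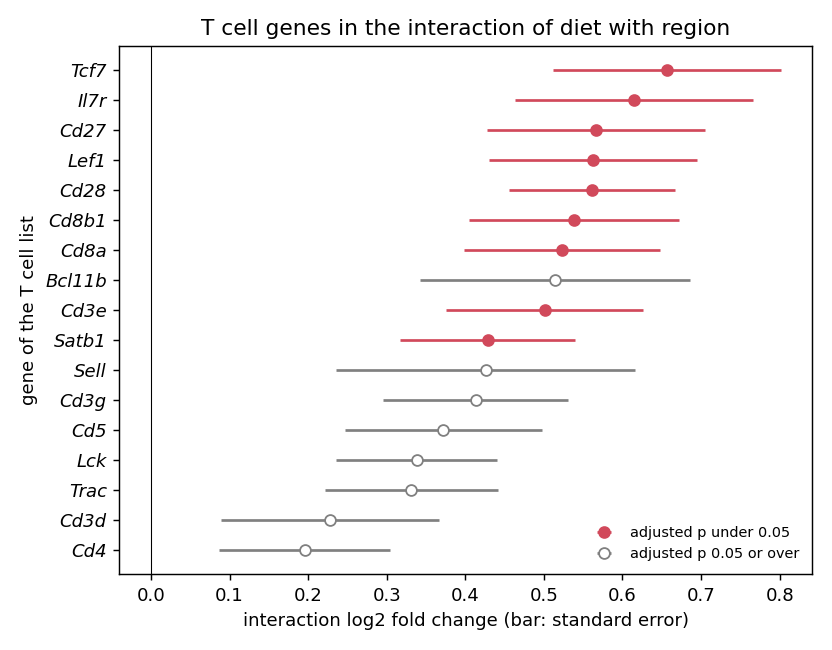
Interaction log2 fold change of the 17 T cell genes tested, with bars for the standard error; filled points passed at an adjusted p under 0.05. All 17 lie above 0, from 0.20 for Cd4 to 0.66 for Tcf7, and 9 passed.

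Genes of stromal cells, macrophages and other leukocytes contributed single members. Il7, a survival cytokine made by reticular stroma, was the called member of 20 reticular stroma genes. It fell in gut-draining nodes by 0.74 (adjusted p 3.56e-07), its inguinal value was 0.00 ± 0.17, and the interaction was -0.74 ± 0.18 (adjusted p 0.0261). Inmt, a methyltransferase of medullary and adventitial fibroblasts, was the called member of 24, and ran from 26.2 to 152 CPM with a median of 70.2 CPM in sufficient and from 10.2 to 68.6 CPM with a median of 25.6 CPM in deficient gut-draining libraries, with an interaction of -1.76 ± 0.36 (adjusted p 0.00711). Lifr, a cytokine receptor of high endothelial venules, was the called member of 16, at -0.85 ± 0.20 (adjusted p 0.0226). The medians of these 3 lists were -0.28, -0.18 and -0.20. Without the libraries low in Gm19220 the interaction was -0.52 for Il7 (adjusted p 0.81), -1.37 for Inmt (adjusted p 0.32) and -0.88 for Lifr (adjusted p 0.45).

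Adgre1, which encodes the macrophage antigen F4/80, was the called member of 21 node macrophage genes, at -0.87 ± 0.21 (adjusted p 0.0293), and Ffar2, a receptor of short-chain fatty acids, of 25 dendritic cell genes, at -1.10 ± 0.27 (adjusted p 0.0309). Of 17 neutrophil and monocyte genes, Mmp9, a gelatinase, had a lower interaction (-1.19 ± 0.30) and Ly6c2, a monocyte and T cell surface protein, a higher one (0.84 ± 0.21). Mmp9 and Mmp3, a stromelysin with 1.16 ± 0.28, were the called members of 25 collagen and matrix genes. Gbp4 was the called member of 15 guanylate-binding proteins, at 0.56 ± 0.15 (adjusted p 0.0418), and passed in 8 of the 27 alternatives. Without the libraries low in Gm19220 the interaction was -0.85 for Adgre1 (adjusted p 0.545) and -1.10 for Ffar2 (adjusted p 0.362). Each of these counts stands against 0.919% of all genes.

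Of the 169 genes, 138 were on none of the 40 lists. Some of them, chosen after their values were seen, have well-known roles. Lower interactions were found for the cytokine genes Il33 (-0.72 ± 0.16, adjusted p 0.012) and Csf1 (-0.67 ± 0.14, adjusted p 0.00884), the growth factor gene Bmp2 (-1.06 ± 0.24, adjusted p 0.0181), the antioxidant enzyme gene Gpx3 (-1.49 ± 0.21, adjusted p 4e-05) and Clu, which encodes clusterin (-0.49 ± 0.09, adjusted p 0.00176). All 5 lost their call without the libraries low in Gm19220, and Il33, Gpx3 and Clu also in female mice only. Stra6l, a relative of the retinol receptor Stra6, had -1.53 ± 0.26 (adjusted p 0.00049), with 13.1 ± 3.66 CPM (SD) in sufficient and 5.64 ± 1.67 CPM in deficient duodenal nodes. Higher interactions were found for the T cell genes Thy1 (0.56 ± 0.14, adjusted p 0.0334) and Themis (0.59 ± 0.15, adjusted p 0.0448), and for Il12b (1.21 ± 0.26, adjusted p 0.0103), a subunit of interleukins 12 and 23. These 3 lost their call without the libraries low in Gm19220, and Themis and Il12b also in female mice only.

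Genes of gut homing and of the mucosal address did not pass. Of 10 tested, 0 were called, and 1 had an unadjusted p under 0.05. Madcam1, the mucosal addressin, fell in gut-draining nodes by 0.74 (adjusted p 3.42e-05) and had an interaction of -0.70 ± 0.27 (adjusted p 0.262). On both diets all gut-draining libraries were above all inguinal ones, at medians of 65.7 and 7.47 CPM on the sufficient and 37.1 and 7.69 CPM on the deficient diet. Nkx2-3, the transcription factor that controls it, was at 0 in 4 sufficient and 5 deficient inguinal libraries and at 5.31 to 18.3 CPM in all gut-draining ones. Ccr9, the small intestinal homing receptor, fell in both regions, by 0.77 and by 0.68, with an interaction of -0.09 ± 0.16 (adjusted p 0.903). The interactions of Itga4 and Itgb7, which encode the integrin that binds Madcam1, were 0.16 ± 0.20 and 0.15 ± 0.13.

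Several other genes of node identity also kept within the test. Igha, the IgA heavy chain, was above all inguinal libraries in all gut-draining libraries on both diets and had -1.04 ± 0.48 (adjusted p 0.393). Cxcl13, the follicular chemokine, had -0.59 ± 0.16 (adjusted p 0.0503), Timd4, a macrophage receptor, 0.54 ± 0.15 (adjusted p 0.0561), and Cd207, which encodes langerin, 0.84 ± 0.34 (adjusted p 0.304). Of 192 immunoglobulin segments 0 passed, with a median of 0.73, and of 18 interferon response genes 0 passed, with a median of 0.65 and all 18 point estimates positive.

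Genes of tissue around the nodes did not pass in this contrast. Of 25 adipose genes tested 0 passed, while all 25 point estimates were negative, with a median of -1.53, and 15 had an unadjusted p under 0.05. Their summed level ran from 974 to 4618 CPM in sufficient and 1085 to 6968 CPM in deficient inguinal libraries, and from 4700 to 9879 CPM in sufficient and 3023 to 6391 CPM in deficient jejunal libraries, with overlapping ranges. Of 20 pancreatic genes 0 passed, with a median of -1.54. The part of fat or pancreas in the lower interactions was not tested. Without the 6 libraries with more than 1% pancreatic counts 130 genes passed.

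The single gut-draining nodes gave different numbers of genes. Compared singly with the shared inguinal libraries, ileal nodes gave 269 genes (1.46%), duodenal nodes 85 (0.462%), jejunal nodes 61 (0.332%) and colonic nodes 4 (0.0218%). Leaving out 1 library number at a time gave 125 to 250, 41 to 88, 33 to 84 and 1 to 11 genes for these nodes, and the lowest values came without sufficient number 4 for ileal and number 1 for duodenal and jejunal nodes. Without the libraries low in Gm19220 the 4 counts were 37, 23, 25 and 1, and in female mice only 24, 7, 9 and 1. Without the libraries rich in pancreatic genes the duodenal count was 23. The diet effect itself differed among the 4 gut-draining nodes for 29 genes (0.158%), of which 10 were among the 169. That count was 16, 15, 11 and 12 without sufficient numbers 1, 3, 4 and 5, and 18 and 10 without deficient numbers 1 and 2. Of the 10, 7 had a higher and 3 a lower interaction.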

How the data were processed

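Whole lymph nodes were profiled by polyA RNA sequencing. The authors deposited estimated counts per gene, which are not whole numbers and were rounded here; the submitters' processing notes list GRCm39, mm10, kallisto, edgeR and limma with no role or version, and how they were used is not given here. Genes low in all groups were removed (filterByExpr), libraries were scaled by TMM, and edgeR 4.0.16 (R 4.3.3) was fitted to all 50 libraries with group and sex, leaving 39 residual degrees of freedom. Each contrast was adjusted by Benjamini-Hochberg over 18387 genes at 0.05. The highest correlation between any pair of libraries was 0.976, so none was a copy of another. CPM use TMM-scaled totals.

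Genes named are those called in the interaction with a group mean of at least 2 CPM: the 12 largest in each direction, leaving out immunoglobulin and T cell receptor segments, up to 4 per list, and a set of genes of interest whether called or not; other names are marked as chosen later. Some genes that this rule selects are not reported here. The members and lists were chosen with earlier results of these data known. Symbols and positions are from GENCODE M21 (GRCm38). On simulated counts of 18028 genes, the interaction test recovered 65 of 100 genes with a true log2 value of 1 and 90 of 100 with one of 2. Of its 164 calls there, 5.49% were unchanged genes. These rates belong to the simulated counts and are not an error rate for the 169 genes of the interaction. Alternatives used limma 3.58.1 and DESeq2 1.42.0.

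Library numbers recur across nodes, and the labels do not say whether a number marks a mouse. Of 100 pairs of same-numbered libraries within a diet, 43 had residuals correlated above 0.1. Of 50 libraries, 24 correlated best with a library of their own number. No such count is given for pairs of unlike number, so these values do not settle whether a number marks a mouse. Because the labels do not say so, the numbers were not used to pair samples in the main fit.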

Additional observations from a re-analysis of the deposited data

Results flagged for a closer look

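The 169 genes of the interaction stand out because the diet effect itself differed between gut-draining and inguinal nodes, by the test of that difference. Among the genes of the interaction named by the rule on size and lists, the diet effect also differed among the 4 gut-draining nodes for Asprv1 (adjusted p 0.000259), Gpr15lg (adjusted p 0.00208) and Cma1 (adjusted p 0.00308), in edgeR's F test over the 4 nodes. It also differed for S100a4 and H2-M2, which were named after their values were seen. In all 5 the colonic value against inguinal nodes was the smallest.

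The 15 genes whose values are given by library were also searched, group by group, for 1 library far from the other 4, by Dixon's test at 95%. In all, 15 of 150 groups were marked. The test's rate of 1 in 20 holds for normally distributed values, which CPM near 0 are not. The genes also share the same libraries, so the count cannot be set against that rate. In the deficient colonic group the highest library stood at 13.7 CPM for Tpsb2, 17.4 CPM for Mcpt4, 9.03 CPM for Cma1 and 2.21 CPM for Aqp9. Highest libraries of sufficient groups stood at 24.2 CPM (jejunal) and 13.0 CPM (ileal) for Cyp26b1, 3.66 CPM (ileal) for Cma1 and 2.02 CPM (colonic) for Mcpt4. Near 0, they stood at 0.264 CPM (duodenal) for Tpsb2, and at 0.225 (duodenal), 0.146 (ileal) and 0.136 CPM (colonic) for Tpsab1. The remaining ones were the highest deficient ileal library at 3.17 CPM for Lrat and 34.8 CPM for Ccl2, and the lowest sufficient duodenal library at 43.4 CPM for Cd28. The cause of these values was not tested.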

How the results depend on the processing

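Of 27 alternatives, none reversed the sign of any of the 169 genes while the values of Ccr9, Glycam1, Itgb7, Jchain, Nkx2-3, Rdh10 and Stra6, which did not pass, changed sign in at least 1, and 7 of the 169 passed in all, 47 in all that left out 1 library number. The 63 named genes gave 1387 values on the same side of the threshold, 295 weaker and 19 stronger. The interaction count (169, 73 higher, 96 lower) stayed within 1.5 times with another scaling (168 with RLE size factors, 164 with totals without Gm19220, immunoglobulin and pancreas genes), with limma-voom (163), at 1 CPM or more in 5 libraries (158), without a sex term (122), with a term for low Gm19220 (172), and without the duodenal (167) or colonic libraries (229).

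It was 111 with 61 lower without the low-count filter, 290 (143 higher, 147 lower) with DESeq2, 66 (32 higher, 34 lower, 53 shared with the 169) with a sex term in each region, 29 (16 higher, 13 lower) in female mice only, 84 (32 higher, 52 lower) without jejunal libraries, 89 (46 higher, 43 lower) without ileal libraries and 19 (11 higher, 8 lower) without the libraries low in Gm19220. Leaving out 1 library number gave 78 to 217 genes, 32 to 93 higher and 45 to 124 lower.

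A replicate block for the library number within each diet was also fitted, although the pairing check did not settle whether a number marks a mouse. With the block the interaction count was 273 (135 higher, 138 lower, 167 shared). The diet effect then passed for 2025 genes in gut-draining nodes, against 3712 in the main fit, and 80 genes differed among those nodes. In the residuals without the block, 24 of 50 libraries correlated best with a library of their own number. The main fit treats nodes of the same number as independent. If they share a mouse, its gut-draining diet count rests on fewer independent units than libraries.

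The gut-draining diet effect (3712) was 6051 without a sex term, 2262 without duodenal and 2446 without jejunal libraries, and 2002 to 4177 without 1 number. The inguinal diet effect (154) was 96 without the low-count filter, 261 with DESeq2, 91 with a sex term in each region, 50 in female mice only, 35 without the libraries low in Gm19220, and 53 to 220 without 1 number. Genes that differed among gut-draining nodes (29) numbered 15 without a sex term, 1 in female mice only, 7 without duodenal and 12 without colonic libraries, 16 without the libraries low in Gm19220, 11 without those rich in pancreas genes, and 10 to 33 without 1 number. For duodenal, jejunal, ileal and colonic nodes singly (85, 61, 269 and 4) the counts were 179, 145, 408 and 23 with DESeq2, 158, 137, 395 and 10 with the replicate block, 37, 25, 183 and 1 with a sex term in each region, and 45, 56, 164 and 8 without the low-count filter. Fewer libraries entered in all settings that leave some out; the cause of the other shifts was not tested. All deficient mice were female, so sex within diet rests on the sufficient libraries. At these library totals, genes at or under 1 CPM rest on few reads.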

Other observations

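Genes of chaperones and cholesterol synthesis leaned the same way without passing. All 14 heat shock genes had a negative interaction, with a median of -0.41 and 6 at an unadjusted p under 0.05, and 0 passed. Of 16 cholesterol synthesis genes 0 passed, with a median of -0.35 and 7 at an unadjusted p under 0.05, all lower. Of 24 Hox genes, which mark body position, 0 passed, with a median of -0.38. The list of 20 immediate early genes had 17 positive point estimates, a median of 0.22 and 0 genes that passed. Of 14 regulatory T cell genes 0 passed, with a median of 0.28 and 6 at an unadjusted p under 0.05. All genes tested had a median of -0.00188.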
